A study of Mus musculus with 18 samples.

Results

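The genes of transforming growth factor beta (TGF-beta) signalling described here were the ligands Tgfb1, Tgfb2 and Tgfb3, the receptors Tgfbr1 and Tgfbr2, the signal transducers Smad2 and Smad3, the inhibitors Smad7 and Skil, and the matrix protein gene Tgfbi. They were chosen by symbol, as 10 of the 23420 genes counted, and all 10 had enough counts to be tested. RNA of whole retinas came from 9 wild-type (genotype wt) BALB/cJ mice, an albino strain in which bright light damages the photoreceptors. The 3 naïve mice had no light and no treatment. The 3 vehicle-treated mice and the 3 TD139-treated mice were exposed to 15000 lux for 1 h, and their retinas were taken 4 days later. TD139, a small molecule that binds galectin-3, was given at 15 mg/kg by daily intraperitoneal injection that began the day before the light, and the vehicle mice received its solvent, dimethyl sulfoxide. No group received TD139 or vehicle without light, so light, injection and the handling around them cannot be told apart in a comparison with naïve mice. The study used young adults of both sexes, whose sex per mouse is not in the labels.

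TGF-beta is secreted in a latent form that is stored in the matrix, and integrins, thrombospondin or proteases release it. The active ligand joins TGFBR2, which binds it, with TGFBR1, which then phosphorylates SMAD2 and SMAD3. These enter the nucleus with SMAD4, while SMAD7 blocks the receptors and SKIL (SnoN) represses SMAD target genes. In the retina, the neurons and Müller glia are known sources of TGF-beta 2, and microglia depend on TGF-beta signalling to keep their resting state. Phosphorylation of SMAD2 and SMAD3 and release of latent ligand are not seen in transcript counts.

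Among the 10 genes, Tgfb1, Tgfb2 and Tgfbr2 were above the naïve level in vehicle-treated mice, and their promoters are shown because these genes moved together there. RefSeq promoter windows on GRCm38.p6, from 250 bases before to 50 bases after the start of the gene, were read for 6 of the 10 genes. Capitals mark matches on either strand. The motif CAGAC is a SMAD-binding element, known from promoters that SMAD3 and SMAD4 bind. GGGCGG is the GC box of many promoters without other core elements, and the TATA box was searched as TATAAA. The AP-1 site, TGA and TCA with any base between them, was not in these windows. GAGGAAGT, an ETS site of the PU.1 type, was not in them either. The Tgfb1 window lies at chr7:25686752-25687051 on the plus strand, that of Tgfb2 at chr1:186705940-186706239 on the minus strand, and that of Tgfbr2 at chr9:116175314-116175613 on the minus strand.
Tgfb1: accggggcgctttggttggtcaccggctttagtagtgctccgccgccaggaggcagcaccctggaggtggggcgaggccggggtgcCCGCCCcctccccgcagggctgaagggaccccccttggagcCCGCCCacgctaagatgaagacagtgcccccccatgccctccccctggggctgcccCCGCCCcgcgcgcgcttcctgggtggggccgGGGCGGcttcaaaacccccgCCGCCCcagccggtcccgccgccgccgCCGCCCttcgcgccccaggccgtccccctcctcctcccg
Tgfb2: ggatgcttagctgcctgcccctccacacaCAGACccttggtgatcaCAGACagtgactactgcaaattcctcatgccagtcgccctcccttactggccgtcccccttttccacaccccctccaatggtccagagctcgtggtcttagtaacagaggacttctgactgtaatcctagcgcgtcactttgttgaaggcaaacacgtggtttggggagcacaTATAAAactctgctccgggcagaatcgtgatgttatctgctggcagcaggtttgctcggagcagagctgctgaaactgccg
Tgfbr2: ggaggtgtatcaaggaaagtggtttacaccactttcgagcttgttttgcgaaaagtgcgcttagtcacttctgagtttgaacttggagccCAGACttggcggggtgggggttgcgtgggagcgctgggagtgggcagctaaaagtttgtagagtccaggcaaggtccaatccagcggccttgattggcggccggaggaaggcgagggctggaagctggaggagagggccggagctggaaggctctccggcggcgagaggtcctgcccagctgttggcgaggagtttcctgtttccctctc
The Tgfb1 window held 77.0% G and C and 6 GC boxes, with no TATA box and no CAGAC. The Tgfb2 window held a TATA box that began at −31 from the start of the gene and CAGAC at −221 and −204, with no GC box. The Tgfbr2 window held 1 CAGAC, at −160, and neither of the other elements. Of 32851 promoter windows of this length, 49.6% held CAGAC, 35.7% the GC box, 13.6% the TATA box, 7.81% the AP-1 site and 3.20% GAGGAAGT, so that only the TATA box of Tgfb2 was among the less common of the elements found. The 3 genes that rose after light thus had no element of this search in common, and a match of letters is not evidence of binding.

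In naïve retina, Tgfb2 was the highest of the 10 genes per transcript length, and Tgfb1 and Tgfbr2 were among the lowest 3. On the RPKM scale, which divides the read count by library size and by the length of the longest transcript, the naïve level of Tgfb2 was 15.2 ± 0.910 (SD, n = 3 mice), that of Tgfb3 8.82 ± 0.475, that of Smad3 8.36 ± 0.982 and that of Smad2 7.62 ± 0.604. The ranges of the mice overlapped between Tgfb3 and Smad3 and between Smad3 and Smad2, whereas Tgfb2 lay above Tgfb3 in every naïve mouse. Skil (4.43 ± 1.11 RPKM), Smad7 (3.70 ± 0.0671) and Tgfbr1 (3.51 ± 0.611) followed, apart from Smad2 but with ranges that overlapped from neighbour to neighbour. Tgfb1 (1.18 ± 0.131 RPKM) lay apart from both neighbours, and Tgfbi (0.569 ± 0.372) overlapped with Tgfbr2 (0.286 ± 0.0317). The ligand-binding receptor thus had the lowest mean of the 10 genes per length in naïve retina. After light with vehicle, Tgfb1 had a mean of 3.29 ± 0.563 RPKM and its range overlapped with that of Smad7 (3.48 ± 0.232 RPKM), from which it was separate in the other two groups. By their means, Tgfb2 kept the first place and Tgfbr2 the last in all 3 groups.

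**Figure D1:**
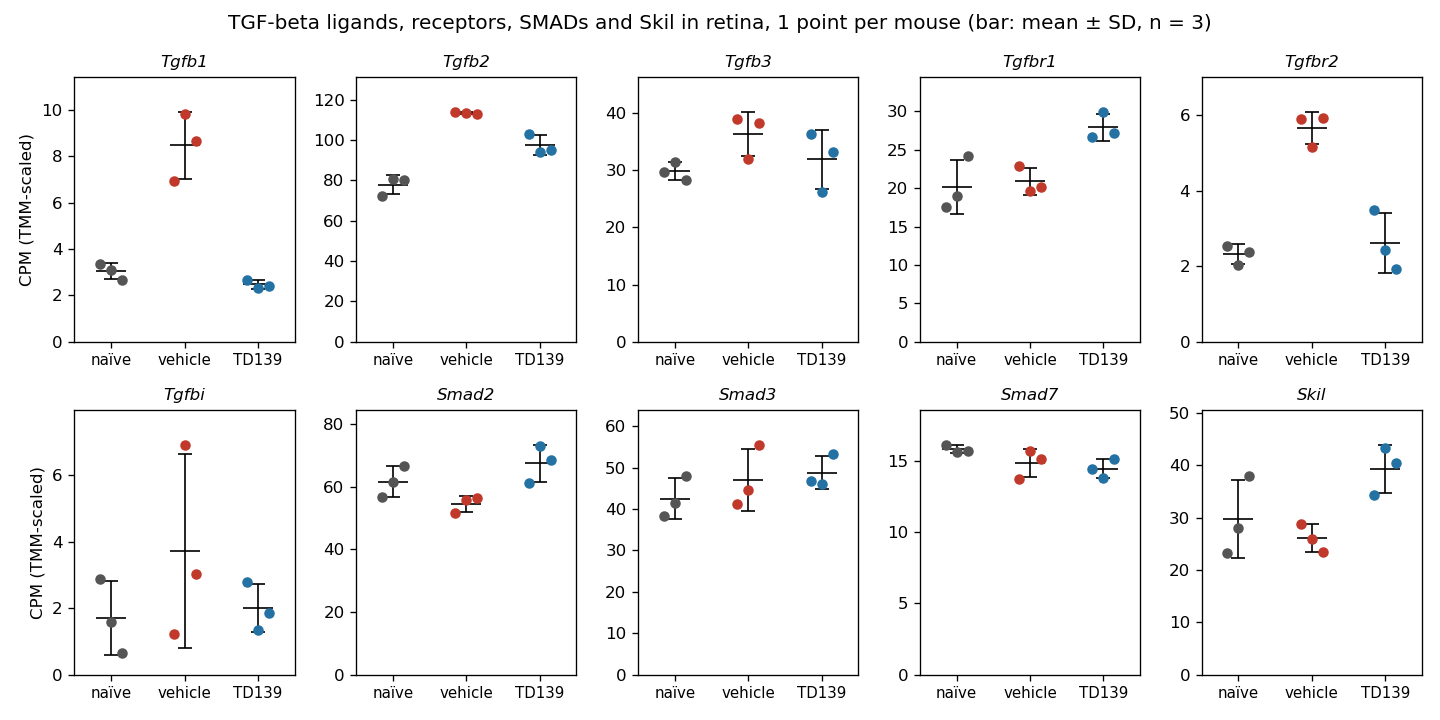
Level of each of the 10 genes in CPM (counts scaled by library size and TMM, y axis from 0) in each mouse of the 3 groups (points), with the mean ± SD of 3 mice (bars). For Tgfb1, the vehicle-treated mice lie between 6.94 and 9.82 CPM and all other mice between 2.33 and 3.34 CPM, and Tgfbr2 shows the same separation.

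Between 26171887 and 30201517 reads per mouse were counted on genes, where 3 counts equal 0.0993 to 0.115 CPM. Lgals3, which encodes the target of TD139, had 5.61 to 10.1 CPM in naïve, 36.1 to 67.2 CPM in vehicle-treated and 2.77 to 10.6 CPM in TD139-treated mice. The retina's own markers were present. The sum of 12 rod markers was 83023 to 97267 CPM in naïve, 48698 to 68655 CPM in vehicle-treated and 68214 to 84710 CPM in TD139-treated mice. Of the 12, 8 were called lower after light, against 2.89% of all tested genes. The summed level of 14 microglia and macrophage markers was 42.2 to 46.0 CPM in naïve, 242 to 504 CPM in vehicle-treated and 29.5 to 146 CPM in TD139-treated mice, the highest of the latter being TD139-treated mouse 1, and none of these markers was at 0 in any mouse. Vehicle-treated mouse 2 stood apart by its lens genes: the sum of 8 lens markers was 9106 CPM there, 3.7 and 10.7 CPM in the other vehicle-treated mice, 111.5 to 401.0 CPM in naïve and 0.5 to 274.3 CPM in TD139-treated mice. The sum of 12 markers of retinal pigment epithelium and choroid was also highest in that mouse, at 544 CPM against 146.5 to 318.4 CPM in the other 8 mice. Of the lens markers, Cryba1, Crygs, Crygd and Mip had no count in at least 1 mouse.

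**Figure D2:**
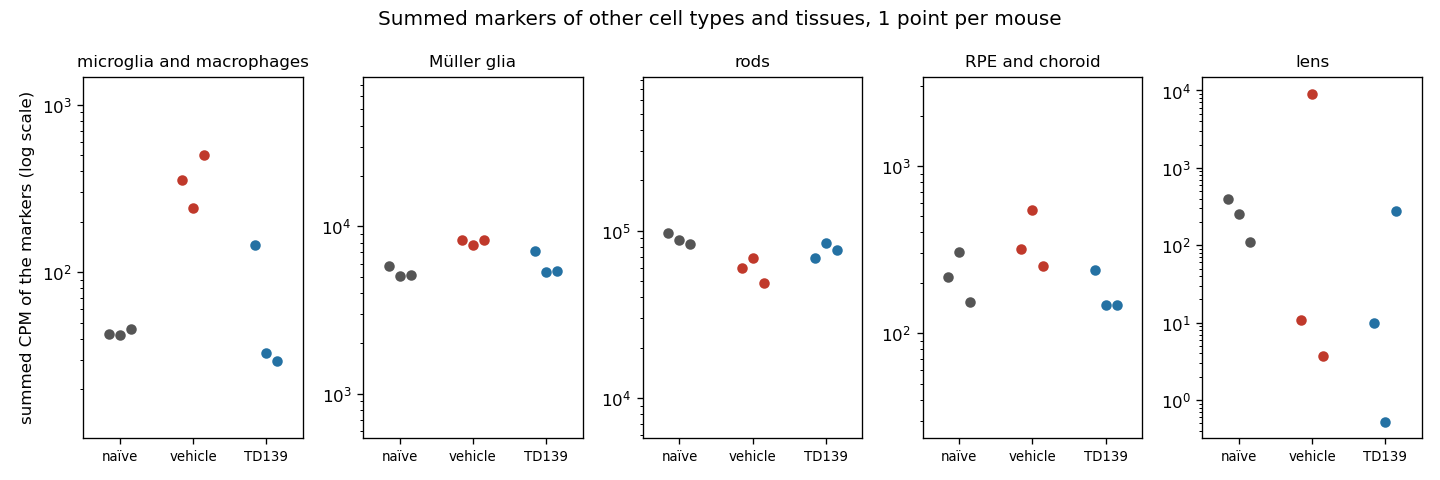
Summed CPM (log scale) of the markers of microglia and macrophages, Müller glia, rods, retinal pigment epithelium (RPE) with choroid, and lens, 1 point per mouse. The 3 vehicle-treated mice have 242 to 504 CPM of microglial markers against 29.5 to 146 CPM in the other 6 mice, and vehicle-treated mouse 2 has 9106 CPM of lens markers.

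What light exposure did to the pathway was asked with vehicle-treated and naïve mice. The ligand genes Tgfb1 and Tgfb2 and the ligand-binding receptor gene Tgfbr2 were higher in vehicle-treated mice, and no gene of the 10 was lower. A gene was called when its adjusted p-value was under 0.05 in edgeR's quasi-likelihood test with Benjamini-Hochberg adjustment over 15196 genes. Of all tested genes, 4.91% were called higher and 2.89% lower, against 3 and 0 of the 10 genes. The mice of both groups did not overlap for 5 of the 10 genes and for 33.3% of all tested genes. None of the 10 genes reached the log2 fold change of 2 that the study used as its cut-off, in this or the other comparisons.

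Tgfb1, the ligand made by microglia and other immune cells, had 3.34, 3.09 and 2.68 CPM in the naïve mice and 6.94, 9.82 and 8.64 CPM in the vehicle-treated mice. The groups did not overlap, the lowest vehicle-treated mouse being above the highest naïve mouse by more than the whole range of the naïve group. The rise was 2.79-fold (log2 fold change 1.48 ± 0.20 (SE), adjusted p = 0.0127). These levels rest on 73 to 87 counts per naïve mouse and 194 to 278 counts per vehicle-treated mouse. Tgfb2, the most abundant ligand gene here, had 72.5, 80.9 and 80.1 CPM in naïve and 114.0, 113.5 and 112.8 CPM in vehicle-treated mice. Its vehicle-treated mice were nearly alike and above all naïve mice, and the rise was 1.46-fold (log2 fold change 0.54 ± 0.08, adjusted p = 0.0127). The sum of 10 Müller glia markers was 5068 to 5832 CPM in naïve and 7770 to 8319 CPM in vehicle-treated mice. Of the 10, 6 were called higher, against 4.91% of all tested genes. Apoe, 1 of them, had 568 to 848 CPM in naïve and 1795 to 2073 CPM in vehicle-treated mice. In TD139-treated mice the sum was 5336 to 7104 CPM, in mice 2 and 3 within the naïve range, whereas Tgfb2 was above all naïve mice. Of the markers, 4 were called lower than with vehicle, against 16.2% of all tested genes. The sum of 6 markers of astrocytes and gliosis was 78.9 to 112.9 CPM in naïve, 504 to 1295 CPM in vehicle-treated and 44.4 to 149 CPM in TD139-treated mice. The part of these cells in the changes of Tgfb2 and of the pathway lists was not tested. Tgfb3, the third ligand gene, had 29.7, 31.5 and 28.3 CPM in naïve and 38.9, 31.9 and 38.2 CPM in vehicle-treated mice. All its vehicle-treated mice were above the naïve mice, but the lowest of them by little, and the difference did not pass the test (log2 fold change 0.29 ± 0.13, adjusted p = 0.19).

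Tgfbr2, the receptor that binds the ligand, had 2.54, 2.04 and 2.38 CPM in naïve and 5.90, 5.16 and 5.91 CPM in vehicle-treated mice. The groups were far apart relative to the spread within them, and the gene rose 2.44-fold (log2 fold change 1.29 ± 0.25, adjusted p = 0.0211). Tgfbr1, its signalling partner, had 17.5, 18.9 and 24.2 CPM in naïve and 22.9, 19.6 and 20.1 CPM in vehicle-treated mice, so that the groups overlapped (log2 fold change 0.05 ± 0.14, adjusted p = 0.853). The rise of the receptor genes was thus called for Tgfbr2 alone, although the difference between both receptors was not itself tested.

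None of the genes downstream of the receptors passed the test. Smad2 had 56.8, 61.5 and 66.6 CPM in naïve and 51.6, 55.8 and 56.3 CPM in vehicle-treated mice, with every vehicle-treated mouse below the naïve mice by a small margin (log2 fold change −0.18 ± 0.10, adjusted p = 0.28). Smad3 had 38.2 to 48.0 CPM in naïve and 41.2 to 55.5 CPM in vehicle-treated mice (log2 fold change 0.15 ± 0.13). The feedback inhibitor Smad7, a known early target of the pathway, had 15.6 to 16.1 CPM in naïve and 13.8 to 15.7 CPM in vehicle-treated mice (log2 fold change −0.09 ± 0.12). Skil had 23.3, 28.1 and 37.9 CPM in naïve and 28.8, 25.9 and 23.5 CPM in vehicle-treated mice, and these overlapped (log2 fold change −0.19 ± 0.17). Tgfbi, a secreted matrix protein named for its induction by TGF-beta, had 2.88, 1.58 and 0.66 CPM in naïve and 1.22, 6.92 and 3.02 CPM in vehicle-treated mice. The highest value was that of vehicle-treated mouse 2, the mouse with the lens transcripts, and the log2 fold change of 1.12 ± 0.65 did not pass the test (adjusted p = 0.288). Without that mouse it was 0.32 (adjusted p = 0.768).

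The rises of Tgfb1 and Tgfb2 were called when any mouse but naïve mouse 2 was left out, and so also without vehicle-treated mouse 2. Without naïve mouse 2 their log2 fold changes were 1.50 and 0.58 with an adjusted p of 0.0651 for each, and 1 of all tested genes was called. Tgfbr2 was less firm: its log2 fold change was between 1.21 and 1.37 without any one mouse, but the adjusted p was 0.0551 to 0.083 when any naïve mouse, vehicle-treated mouse 1 or vehicle-treated mouse 3 was left out. With the second sequencing run of each mouse alone it was 1.07 (adjusted p = 0.0969).

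**Figure D3:**
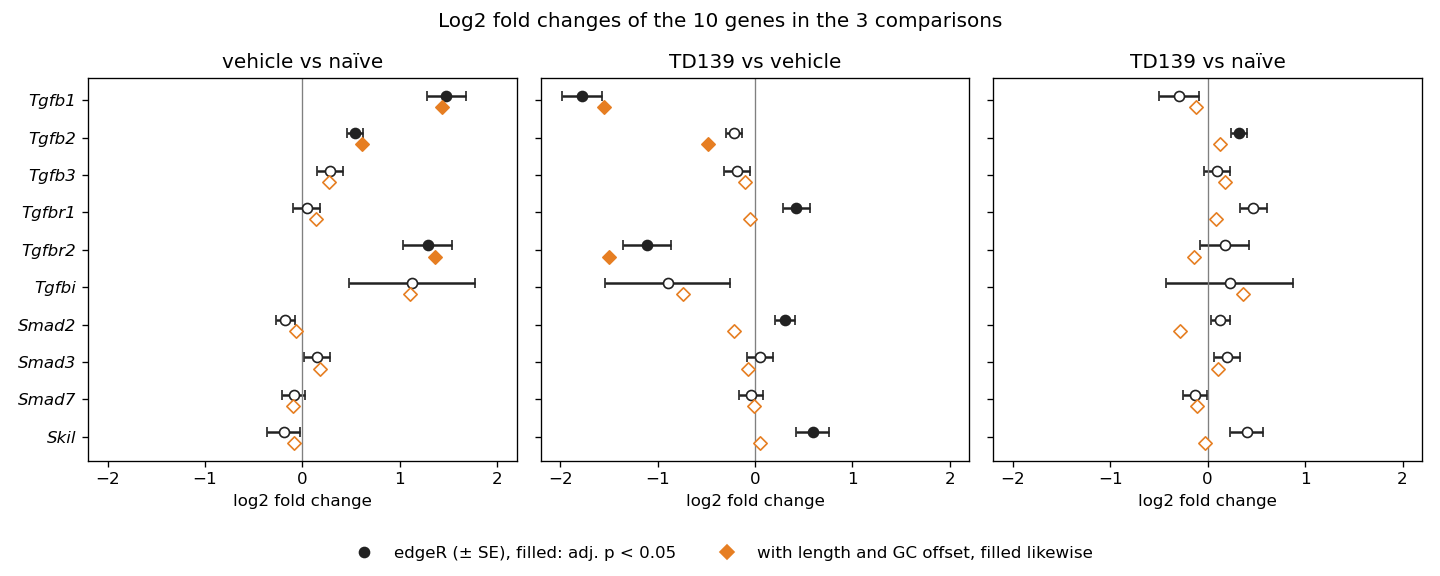
Log2 fold changes of the 10 genes in the 3 comparisons (x axis), from the edgeR fit (circles, with SE) and from the same fit with an offset for transcript length and GC content (diamonds), filled where the adjusted p was under 0.05. Tgfb1 and Tgfbr2 are called under both fits in the first 2 comparisons, whereas the higher values of Tgfbr1, Smad2 and Skil in TD139-treated against vehicle-treated mice lie between −0.21 and 0.05 with the offset.

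What the galectin-3 inhibitor changed was asked with TD139-treated and vehicle-treated mice, both exposed to light. Tgfb1 and Tgfbr2 were lower in TD139-treated mice and not called against naïve mice, while Tgfb2 lay between both other groups. Tgfbr1, Smad2 and Skil were higher. The vehicle-treated mice are the same as in the comparison with naïve mice, so that both comparisons share them. Of all tested genes, 17.2% were called higher and 16.2% lower, against 3 and 2 of the 10 genes, and so the number of the 10 genes called says little about them. The groups did not overlap for 6 of the 10 genes and for 51.5% of all tested genes.

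Tgfb1 had 2.67, 2.33 and 2.41 CPM in the TD139-treated mice, against 6.94 to 9.82 CPM in the vehicle-treated mice. All 3 mice were below the lowest naïve mouse as well. The level was 3.42-fold lower than with vehicle (log2 fold change −1.77 ± 0.21, adjusted p = 0.0050), on 61 to 72 counts per TD139-treated mouse. Tgfbr2 had 3.48, 2.44 and 1.94 CPM in TD139-treated and 5.16 to 5.91 CPM in vehicle-treated mice, and fell 2.16-fold (log2 fold change −1.11 ± 0.25, adjusted p = 0.0093). Its highest TD139-treated mouse was mouse 1, which also had the highest sum of microglial markers in its group, 146 CPM against 32.8 and 29.5 CPM. Without any one mouse, the log2 fold change of Tgfb1 was between −1.90 and −1.65 and that of Tgfbr2 between −1.37 and −0.93, and both were called each time. In bulk retina, fewer cells of a type and less RNA per cell cannot be told apart. Between the groups the microglial markers moved with Tgfb1 and Tgfbr2, but by mouse Tgfb1 did not always follow them. It was highest in vehicle-treated mouse 2 (9.82 CPM), whose microglial sum of 242 CPM was the lowest of its group. In TD139-treated mouse 1 that sum was above all naïve mice, while Tgfb1, the highest of its group at 2.67 CPM, was below them. The part of microglia in these differences was not tested.

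Tgfb2 had 103.0, 94.1 and 95.2 CPM in TD139-treated mice, below all vehicle-treated mice (112.8 to 114.0 CPM) and above all naïve mice (72.5 to 80.9 CPM). The difference from vehicle did not pass the test (log2 fold change −0.22 ± 0.08, adjusted p = 0.0608), but it was called under 6 of 20 alternatives. These were the offset for length and GC content (log2 fold change −0.48, adjusted p = 0.0097), also with the replicate block, and the fit without TD139-treated mouse 1 (−0.26, adjusted p = 0.0426). The others were DESeq2, library size alone and at least 50 counts per mouse. Tgfb3 had 36.3, 26.2 and 33.2 CPM, overlapped with vehicle and was not called (log2 fold change −0.19 ± 0.13). Tgfbi had 2.78, 1.36 and 1.86 CPM, within the range of the vehicle-treated mice (log2 fold change −0.90 ± 0.64, adjusted p = 0.297). With 1 mouse left out its log2 fold change was −1.31 to −0.088, and it was never called.

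Tgfbr1 had 26.7, 30.0 and 27.2 CPM in TD139-treated against 19.6 to 22.9 CPM in vehicle-treated mice, 1.34-fold higher (log2 fold change 0.42 ± 0.14, adjusted p = 0.0367). Smad2 had 61.2, 73.0 and 68.4 CPM against 51.6 to 56.3 CPM, 1.24-fold higher (log2 fold change 0.31 ± 0.10, adjusted p = 0.0362). Skil had 34.3, 43.2 and 40.5 CPM against 23.5 to 28.8 CPM, 1.51-fold higher (log2 fold change 0.59 ± 0.17, adjusted p = 0.0217). In each of the 3 genes the groups did not overlap, and TD139-treated mouse 2 was the highest. Smad3 (46.8, 46.2 and 53.4 CPM, log2 fold change 0.05 ± 0.13) and Smad7 (14.4, 13.8 and 15.1 CPM, log2 fold change −0.04 ± 0.12) overlapped with vehicle and were not called.

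These 3 higher genes have long transcripts, and in this comparison the fold change went with transcript length over all genes. When the genes were split by their longest transcript into 5 equal groups, from the shortest to the longest, the median log2 fold change was −0.38, −0.16, −0.02, 0.14 and 0.37. In the longest group, of 5263 bases and more, 45.1% of the genes were called higher and 3.42% lower. That group holds Tgfbr1 (5756 bases), Skil (6717), Smad2 (8089) and Tgfbr2 (8092), of which Tgfbr2 fell. Across 15078 genes, Spearman's correlation of transcript length with the log2 fold change was 0.49 here and 0.59 for TD139-treated against naïve mice, but −0.11 for vehicle-treated against naïve mice. These are values over genes of the same 9 libraries, which are not independent replicates. With an offset that took each mouse's own trend with length and GC content out of the fit, the log2 fold change of Tgfbr1 was −0.05 (adjusted p = 0.746), that of Smad2 −0.21 (adjusted p = 0.116) and that of Skil 0.05 (adjusted p = 0.74). Those of Tgfb1 and Tgfbr2 were −1.55 and −1.50, and both were called. Reads assigned to no counted feature also differed, with 21.3 to 22.8% in TD139-treated, 16.5 to 19.4% in vehicle-treated and 19.1 to 19.9% in naïve mice. Whether reads within introns are among them is not given. When mouse 2 or mouse 3 of either light-exposed group was left out, none of Tgfbr1, Smad2 and Skil was called (adjusted p 0.0543 to 0.143). Without naïve mouse 2, Tgfbr1 (0.42, adjusted p = 0.0539) and Smad2 (0.31, adjusted p = 0.0595) were not called, and without vehicle-treated mouse 1, Smad2 was not (0.27, adjusted p = 0.102).

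**Figure D4:**
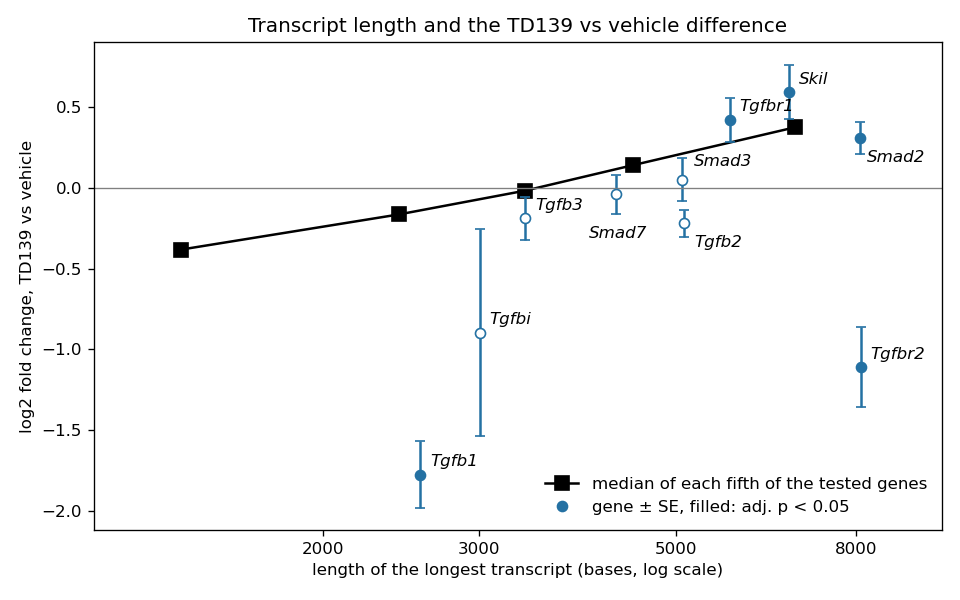
Log2 fold change of TD139-treated against vehicle-treated mice (y axis) by length of the longest transcript (x axis, log scale), for the 10 genes (circles with SE, filled where called) and as the median of each of the 5 groups of tested genes by length (squares). The medians run from −0.38 to 0.37; Tgfbr1, Smad2 and Skil lie near them, and Tgfb1 at −1.77 and Tgfbr2 at −1.11 lie far below.

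Whether retinas exposed to light under TD139 differed from those without light was asked with TD139-treated and naïve mice. Tgfb2 was the one gene of the 10 that was called, 1.25-fold higher (log2 fold change 0.32 ± 0.08, adjusted p = 0.0491), and no gene was called lower. Of all tested genes, 2.72% were called higher and 2.38% lower. The groups did not overlap for 4 of the 10 genes and for 32.2% of all tested genes. These 4 were Tgfb2, Tgfbr1 with higher and Tgfb1 and Smad7 with lower values in TD139-treated mice. The difference of Tgfb2 lay close to the threshold: without any one mouse its log2 fold change was 0.29 to 0.36, and it was called only without naïve mouse 3, with an adjusted p of up to 0.172 without the others. With the offset it was 0.13 (adjusted p = 0.458).

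Tgfb1 differed from naïve mice by a log2 fold change of −0.30 ± 0.21 (adjusted p = 0.365), with every TD139-treated mouse below the naïve mice, the highest of them (2.67 CPM) by very little. Tgfbr2 overlapped with the naïve mice (log2 fold change 0.18 ± 0.25, adjusted p = 0.676). Tgfbr1 lay above all naïve mice without passing the test (log2 fold change 0.47 ± 0.14, adjusted p = 0.0626), and without naïve mouse 3, the highest of its group, it was called (0.62, adjusted p = 0.0185). Skil overlapped with the naïve mice and did not pass the test (0.40 ± 0.17, adjusted p = 0.141), and it was called without naïve mouse 3 (0.62, adjusted p = 0.0223). With the offset the log2 fold change of Tgfbr1 was 0.09 and that of Skil −0.03, and neither was called. For Smad2, Smad3, Smad7, Tgfb3 and Tgfbi the log2 fold changes were between −0.13 and 0.23, and none was called.

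Another 156 genes of the pathway were described in 8 lists, of which 147 were tested. After light with vehicle, 24 of them were called higher and 0 lower. In TD139-treated against vehicle-treated mice 23 were higher and 46 lower, and against naïve mice 4 were higher and 1 lower. Of all tested genes, 4.91% were higher and 2.89% lower after light, 17.2% and 16.2% with TD139 against vehicle, and 2.72% and 2.38% against naïve mice. The numbers of pathway genes called higher with TD139, against vehicle and against naïve mice, were thus near those shares. With the offset for length and GC content 28 were higher and 2 lower after light, and 9 were higher and 37 lower with TD139 than with vehicle. Called after light with the offset alone were Itgav (0.65), Inhba (1.56), Klf10 (0.75), Zeb2 (0.48) and Gpr34 as higher and Ep300 (−0.49) and Gas6 as lower. The median log2 fold change over these genes was 0.40, −0.38 and 0.11 in the 3 comparisons, while that of all tested genes was between −0.02 and 0.00. The number called after light was 3, 1 or 5 when naïve mouse 1, 2 or 3 was left out, and 9, 23 or 2 when vehicle-treated mouse 1, 2 or 3 was. Without TD139-treated mouse 2 or 3 the number called against vehicle was 22 or 27.

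**Figure D5:**
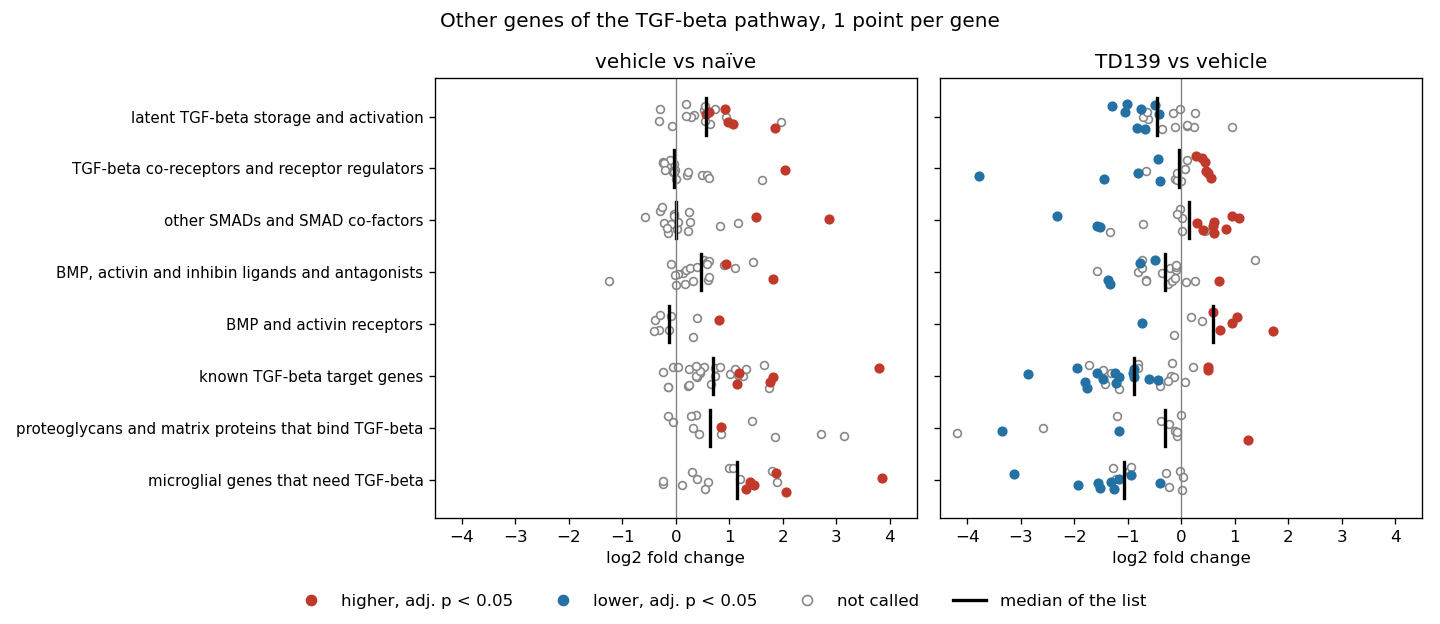
Log2 fold changes of the 147 tested pathway genes in 8 lists (rows), for vehicle-treated against naïve mice (left) and TD139-treated against vehicle-treated mice (right), 1 point per gene, coloured where called, with the median of each list as a bar. The list of latent TGF-beta storage and activation has 6 genes called higher on the left and 8 called lower on the right, and the receptors of BMP and activin have 5 called higher on the right.

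Of 20 tested genes that store or activate latent TGF-beta, 6 were called higher after light, 0 lower, and 14 did not pass the test (median log2 fold change 0.56). Of all tested genes, 4.91% were higher and 2.89% lower. Thbs1, which encodes the activator thrombospondin 1, had 7.72, 10.7 and 6.52 CPM in naïve, 34.4, 30.0 and 25.5 CPM in vehicle-treated, and 14.5, 10.1 and 11.8 CPM in TD139-treated mice. The vehicle-treated mice lay apart from all others, with a log2 fold change of 1.85 ± 0.21 after light (adjusted p = 0.0127) and of −1.30 ± 0.20 with TD139 (adjusted p = 0.0053). Emilin1, a matrix glycoprotein gene that limits processing of the TGF-beta precursor, and Mmp14, a membrane protease gene, followed the same course (1.06 ± 0.23 and 0.98 ± 0.22 after light, −1.06 ± 0.23 and −1.02 ± 0.22 with TD139). The others called after light were Itgb1 (0.57), Itgb5 (0.63) and Mmp2 (0.91), the first 2 of which encode integrin subunits. Under TD139, 8 of 20 genes were lower and 0 higher than with vehicle, against 16.2% and 17.2% of all tested genes. The 8 were the 6 called after light, Plat (−0.68) and Ltbp3 (−0.49 ± 0.16), a latent TGF-beta binding protein gene. With the offset Itgav (−0.64) was also lower. None of the list was called against naïve mice. The convertase gene Furin, which cuts the TGF-beta precursor, was not called in any comparison (68.9 to 88.8 CPM in naïve, 74.7 to 75.6 CPM in vehicle-treated and 74.9 to 91.2 CPM in TD139-treated mice). Itgb6 was not tested, with at most 25 counts in a mouse.

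Of 18 co-receptor and receptor regulator genes, 1 was called after light (median log2 fold change −0.03), where 4.91% of all tested genes were called higher. This 1 gene was Dab2, an adaptor gene for receptor trafficking, with 0.678 to 1.06 CPM in naïve, 2.19 to 6.48 CPM in vehicle-treated and 1.08 to 1.93 CPM in TD139-treated mice (2.03 ± 0.45 after light, adjusted p = 0.0264). In TD139-treated against vehicle-treated mice 6 were higher and 5 lower, where 17.2% and 16.2% of all tested genes were. With the offset 0 were higher and 4 lower. The 6 were Tgfbrap1, Usp15 and the ubiquitin ligase genes Smurf1, Smurf2, Nedd4l and Wwp1, with log2 fold changes of 0.28 to 0.55. The 5 were Dab2 (−1.44 ± 0.43), Tgfb1i1 (−0.81 ± 0.24), Stub1 (−0.44 ± 0.11), Fkbp1a (−0.39 ± 0.09) and Cd109. Stub1 (0.02) and Fkbp1a (−0.02) were not called with the offset, and Zfyve9 (−0.27) was called lower with it alone. Cd109, a co-receptor gene, was near the floor of counting, at 0 to 0.104 CPM in TD139-treated and 0.322 to 1.38 CPM in vehicle-treated mice, and no fold change is given. Stub1, with 152 to 162 CPM against 178 to 242 CPM, was also the 1 gene of this list called against naïve mice (−0.44 ± 0.11, adjusted p = 0.0470), and it was not called there with the offset (−0.10).

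Among 18 tested genes of other SMADs and their co-factors, Runx1 and Tgif1 were called higher after light (median of the list −0.00), against 4.91% of all tested genes. Runx1, a transcription factor that binds SMADs, had 0.183 to 0.384 CPM in naïve, 1.57 to 3.43 CPM in vehicle-treated and 0.348 to 0.630 CPM in TD139-treated mice (2.87 ± 0.47 after light, −2.32 ± 0.45 with TD139). The corepressor gene Tgif1 had log2 fold changes of 1.49 ± 0.29 and −1.52 ± 0.29, and Tgif2 fell with TD139 (−1.57 ± 0.40). With TD139, 8 of 18 genes were higher and 3 lower than with vehicle, where 17.2% and 16.2% of all tested genes were. The 8 were Smad4, Smad5, Trim33, Crebbp, Ep300, Sp1, Ncor1 and Sin3a, between 0.30 and 1.08. With the offset 4 were higher, namely Smad4 (0.62), the acetyltransferase genes Crebbp (0.49) and Ep300 (0.64), and Ncor1 (0.36), and 4 were lower, namely Runx1, Tgif1, Tgif2 and Ppm1a. Smad4, the partner shared by all SMAD pathways, was thus called higher under both fits (0.61 without the offset), unlike Smad2. Trim33 was the 1 gene called against naïve mice (0.55, adjusted p = 0.0468, and 0.09 with the offset). The phosphatase gene Ppm1a had 154 to 176 CPM over the 9 mice and was not called without the offset (0.01), but it was with it (−0.51, adjusted p = 0.0116).

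The sister pathway of bone morphogenetic proteins (BMP) and activins has receptors and ligands of its own. Of its 9 tested receptor genes, 1 was called higher after light (Rgma, a BMP co-receptor gene, 0.80), but with TD139 against vehicle 5 were higher and 1 lower (median 0.60, and 0.23 with the offset). Of all tested genes, 4.91% were higher after light, and 17.2% were higher and 16.2% lower with TD139 against vehicle. Bmpr2, the BMP type II receptor gene, had 8.69, 6.96 and 5.48 CPM in vehicle-treated and 17.6, 26.9 and 24.8 CPM in TD139-treated mice (1.71 ± 0.36, adjusted p = 0.0088). The groups were widely apart, and the naïve mice (4.53, 9.31 and 13.8 CPM) also lay below TD139. Acvr2b (1.03 ± 0.25), Acvr2a (0.95 ± 0.18), Bmpr1a (0.73 ± 0.21) and Acvr1b (0.60 ± 0.19) were the others. With the offset, Bmpr2 (0.94, adjusted p = 0.0223), Acvr2b (1.19), Acvr2a (0.44) and Acvr1b (0.56) were called and Bmpr1a (0.23) was not. Rgma was the one that was lower (−0.73), and Acvr2a the one called against naïve mice (0.83 ± 0.18, adjusted p = 0.0420), where it was not called with the offset (0.41, adjusted p = 0.125).

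Of 22 tested genes of BMP and activin ligands and antagonists, Fst and Chrdl1 were called higher after light (median 0.46), against 4.91% of all tested genes. With TD139 against vehicle 1 was higher and 4 were lower, where 17.2% and 16.2% of all tested genes were. Fst and Chrdl1 encode extracellular antagonists. Fst, the gene of the activin-binding protein follistatin, had 0.339 to 0.623 CPM in naïve, 1.57 to 2.02 CPM in vehicle-treated and 0.435 to 0.905 CPM in TD139-treated mice (1.81 ± 0.39 and −1.33 ± 0.38). Chrdl1 had 15.5 to 19.4 CPM in naïve, 32.6 to 37.6 CPM in vehicle-treated and 21.9 to 28.8 CPM in TD139-treated mice (0.94 ± 0.14 and −0.49 ± 0.14). As with Tgfb2, its TD139-treated mice lay between both other groups without overlap. Fstl3 (−1.37 ± 0.35) and Sostdc1 (−0.77) were also lower with TD139 and Gdf11 was higher (0.71), and none of the list was called against naïve mice. Fstl3 (adjusted p = 0.0546) and Sostdc1 (adjusted p = 0.136) were not called with the offset. Fstl1 and Nbl1 were not called, and vehicle-treated mouse 2 was the highest for both, with 81.0 and 66.5 CPM against 42.0 and 39.4 CPM or less in the other mice.

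Of 30 tested known targets of TGF-beta, 14 were called lower and 2 higher with TD139 than with vehicle (median log2 fold change −0.89), where 16.2% of all tested genes were lower and 17.2% higher. With the offset 9 were lower and 0 higher. After light, 5 were called higher and 0 lower (median 0.69), against 4.91% and 2.89% of all tested genes. The 5 were Spp1, Myc, Tgm2, Cyr61 and Vim. The list does not separate targets that TGF-beta induces from those that it represses, and all 5 also respond to other signals. Spp1, the osteopontin gene, had 8.11, 8.67 and 9.38 CPM in naïve, 137, 69.4 and 158 CPM in vehicle-treated, and 34.3, 8.59 and 7.07 CPM in TD139-treated mice. Its vehicle-treated mice were far above the others, and TD139-treated mouse 1 was the highest of its group, as it was for the microglial markers (3.80 ± 0.70 and −2.87 ± 0.66, adjusted p = 0.0294 and 0.0190). Tgm2, a transglutaminase gene, had log2 fold changes of 1.75 ± 0.38 and −1.96 ± 0.39, Myc of 1.82 ± 0.39 and −1.57 ± 0.38, and Vim, which is also a Müller glia marker, of 1.14 ± 0.22 and −1.47 ± 0.22. The others that fell with TD139 were Cyr61 (−1.79), Cdkn1a (−1.75), Sparc (−1.24 ± 0.29), Itga5 (−1.22), Junb (−1.17), Id1 (−0.89), Id3 (−0.88), Cdkn2b (−0.88), Klf10 (−0.60) and Id2 (−0.43). Of these, Cdkn1a, Id1, Id2, Id3, Cdkn2b and Klf10 were not called with the offset, whereas Fn1 (−0.57), the fibronectin gene, was called lower with it alone. Zeb1 and Zeb2, genes of repressors in the mesenchymal programme, were higher with TD139 than with vehicle (0.50 each) and than in naïve mice (0.55 and 0.88), and in neither comparison with the offset.

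Of 12 tested proteoglycan and matrix genes that bind TGF-beta, 1 was called higher after light, and 1 was higher and 2 were lower with TD139 than with vehicle (medians 0.63 and −0.31), numbers near those that the shares of all tested genes would give. Htra1, a secreted protease gene, had 80.5 to 121 CPM in naïve, 130 to 226 CPM in vehicle-treated and 65.7 to 91.8 CPM in TD139-treated mice (0.85 ± 0.22 and −1.16 ± 0.22). Htra3 had 60.9 CPM in vehicle-treated mouse 2, the mouse with lens transcripts, and at most 5.76 CPM in any other mouse, so that the size of its log2 fold change with TD139 (−3.35 ± 1.04, adjusted p = 0.0470) rests on that mouse. The other vehicle-treated mice, at 5.76 and 5.75 CPM, also lay above the TD139-treated mice, at 1.74 to 3.00 CPM. Aspn was higher (1.25 ± 0.44, adjusted p = 0.0478), at 0.514 to 1.25 CPM against 0.286 to 0.403 CPM. With the offset, Aspn (adjusted p = 0.122), Htra3 (adjusted p = 0.0769) and the rise of Htra1 after light (adjusted p = 0.0652) were not called, and the lower Htra1 with TD139 was. Neither Nrep nor Agrn, the most abundant genes of the list, was called.

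The list of 18 microglial genes linked to TGF-beta includes Axl and was not limited to genes shown to need the signal. Of the 18, 6 were called higher and 0 lower after light, against 4.91% and 2.89% of all tested genes. With TD139 against vehicle 9 were lower and 0 higher, against 16.2% and 17.2%. The medians were 1.14 and −1.07, and none of the 18 was called against naïve mice. Fcrls, a microglial receptor gene, had 0.0384, 0.151 and 0.0733 CPM in naïve and 1.36, 1.06 and 1.55 CPM in vehicle-treated mice, all low levels, and 0.408, 0.0348 and 0 CPM in TD139-treated mice. Cx3cr1, the fractalkine receptor gene, had 3.38, 3.13 and 2.13 CPM in naïve and 7.82, 2.85 and 1.98 CPM in TD139-treated mice, against 12.1 ± 1.02 CPM (SD, n = 3) in vehicle-treated mice (2.07 ± 0.44 and −1.52 ± 0.43). TD139-treated mouse 1 was again the highest of its group. Olfml3 fell with TD139 (−1.94 ± 0.50), and its highest value, 91.7 CPM, was that of vehicle-treated mouse 2. The genes Csf1r, Cx3cr1, P2ry12 and Tmem119 are also among the 14 microglial markers. Of these 14, 8 were higher after light and 11 lower with TD139, or 13 and 7 with the offset. Without the offset their median log2 fold changes were 3.05 and −2.51. Tgfbr2, at 1.29 and −1.11, had smaller fold changes than those medians, and Tgfb1, at 1.48 and −1.77, did too. Bin1 and Gas6, which other retinal cells also express, were not called. With the offset 7 genes of the list were higher and 1 lower after light, with Gpr34 (1.81) added to the former and Gas6 (−0.32, adjusted p = 0.0423) as the latter. With TD139 against vehicle 7 were lower with the offset, without Rhob and Lag3.

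The genes whose levels over the 9 mice were most like those of each of the 10 genes were found among 13092 genes, as the smallest root mean square difference between centred and scaled log2 CPM. For Tgfbr2 they included Csf1r (0.15), the gene of the microglial receptor of colony-stimulating factors, and 4632428N05Rik (0.17). For Tgfb1 they were Gstm6 (0.13), Nupr1 (0.16) and the quinone reductase gene Nqo1 (0.18). Tgfb2 was closest to the BMP antagonist gene Chrdl1 (0.20), Zdhhc15 (0.20) and Sulf1 (0.26). Tgfbr1 had Zfp458 (0.12), Tenm1 (0.15) and Tmem106b (0.15), Smad2 had Zfp37 (0.18), Zfyve16 (0.19) and Vprbp (0.19), and Skil had 5430419D17Rik (0.10), Klhl11 (0.11) and 2610005L07Rik (0.11). For Tgfb3 the closest were Gprin1 (0.23), Nat8l (0.30) and Npr2 (0.30), for Smad3 Cyth3 (0.34), Map4k4 (0.41) and Jag2 (0.42), for Smad7 Vps37b (0.22), Ppp1r8 (0.32) and Pdss1 (0.36), and for Tgfbi Hhatl (0.41), Cbr2 (0.43) and Gm14403 (0.43). The 4 genes with the poorest matches, Tgfbi, Smad3, Smad7 and Tgfb3, were also those that no comparison called. The scaling of each gene to equal spread can bring this about by itself, so it is no finding about these genes. Being close over these mice says nothing of shared control.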

How the data were processed

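RNA of whole retinas from 9 mice was sequenced from poly(A) libraries (Illumina Stranded mRNA Prep) on 2 flow cells. Whole-number counts of reads per gene symbol, made with BaseSpace RNA Express, are what the authors deposited for either run of a mouse, without scaling; the paper's data statement names DESeq2-normalized counts, but the values are unscaled. Per the labels the genome build is mm10. The aligner, the annotation and whether strand was used in counting are not given in the sources used here, so reads of overlapping antisense genes cannot be told apart. Reads assigned to no feature and ambiguous reads (0.303 to 0.471%) were left out.

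Counts of both runs were summed per mouse, and the mouse was the replicate; p-values measure the spread between these mice. edgeR 4.0.16 in R 4.3.3 was used with filterByExpr, TMM and the robust quasi-likelihood F test, with all 3 groups in 1 fit and Benjamini-Hochberg adjustment over 15196 genes. SEs were taken as the absolute log2 fold change over the root of F. CPM are counts scaled by library size and TMM, and RPKM divide them by the longest transcript of GENCODE M21 on GRCm38 (98.5% of symbols joined). The 10 genes and all lists were chosen with earlier results of these data known. Genes named are the 10, and in each list the 3 called genes with the largest log2 fold changes and the 2 with the highest counts, and per gene the 3 closest genes with at least 50 counts per mouse on average, of which 1 is not reported here. Other called genes of a list were named after their values were seen. Alternatives were DESeq2 1.42.0, other scaling and filters, single runs, an offset for length and GC content (a spline with 4 degrees of freedom on each, per mouse), a replicate block, and each mouse left out. The steps were tested on simulated data. Imaging, stainings and quantitative PCR of the study were left aside.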

Additional observations from a re-analysis of the deposited data

How the results depend on the processing

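The lower Tgfb1 and Tgfbr2 in TD139-treated against vehicle-treated mice were called under all 20 alternatives. Over the 30 log2 fold changes and 20 alternatives (600 values), 518 kept direction and side of the threshold, 45 lost and 9 gained the call, and 28 changed sign. The number of the 10 genes called higher in TD139-treated against vehicle-treated mice was 1 with scaling by library size alone, 0 with the length and GC offset (with or without the replicate block) and 1 with run 2 alone. Against naïve mice it was 2 with DESeq2, and 0 with library size alone, without the filter, with only the 2 groups compared, with the offset or with run 1 alone. With 1 mouse left out it was 0 to 3 after light, 0 to 3 with TD139 against vehicle and 0 to 3 against naïve mice. Of the other pathway genes, 13 were called against naïve mice with DESeq2, 9 with at least 50 counts per mouse, 8 with run 1 alone, and 0 with the offset or only the 2 groups compared; with 1 mouse left out they numbered 1 to 30 after light, 22 to 72 with TD139 against vehicle and 0 to 18 against naïve mice. The causes of these differences were not tested.

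Replicate numbers are shared by the groups, but mice of the same number did not deviate together (r from −0.26 to 0.28), and not every mouse correlated best with its own number, so no pairing was used. With the replicate block 0 of the 10 genes and 0 other pathway genes were called against naïve mice, Tgfbr1 lost its call with TD139 against vehicle (0.42, adjusted p = 0.054), and with the block and the offset together 39 other pathway genes were called there.

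Among the changes of sign, Tgfbr1 and Smad2 with TD139 against vehicle had been called, and the others had not. After light, Tgfbr1 was −0.0095 with run 1 alone and −0.035 to 0.20 with 1 mouse left out, Smad7 0.0065 with library size alone, and Skil −0.33 to 0.028 with 1 mouse left out. For TD139 against vehicle with the offset, without and with the replicate block, Tgfbr1 was −0.048 in both, Smad2 −0.21 in both and Smad3 −0.071 and −0.062. Smad3 was −0.039 with library size alone, −0.022 with run 2 alone and −0.037 to 0.18 with 1 mouse left out, and Smad7 was 0.095 with run 1 alone and −0.093 to 0.00019 with 1 mouse left out. Against naïve mice with the offset, without and with the block, Tgfbr2 was −0.14 and −0.16, Smad2 −0.28 in both, and Skil −0.030 and −0.025; Tgfbr2 was −0.040 with run 2 alone and −0.073 to 0.36 with 1 mouse left out, Tgfbi −0.15 to 0.84, and Smad7 0.042 with run 1 alone.

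Scaling by library size alone moved the share of higher calls among all called genes from 63.0 to 77.6% after light, from 51.6 to 39.0% with TD139 against vehicle and from 53.3 to 65.4% against naïve mice. Against naïve mice 775 genes were called in all, and 0 to 2679 under the alternatives. Low counts limit Tgfbi (18 to 196 counts per mouse) and Tgfbr2 (49 to 176).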
